A study of Mus musculus with 12 samples.

Results

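The triad is the junction in a skeletal muscle fibre at which the calcium channel of the transverse tubule (T-tubule) meets the calcium release channel of the sarcoplasmic reticulum. The 10 genes described here encode a ryanodine receptor, calcium channel subunits and other triad proteins, and are called the triad genes. They were chosen by name, with earlier results of these data known: Ryr1, Cacna1s, Cacnb1, Cacnb4, Cacng1, Cacna2d1, Stac3, Jph1, Jph2 and Trdn. All 10 were among the 24528 genes of the deposited table, and all 10 were among the 12215 genes that passed the filter on low values. RNA was measured in bulk gastrocnemius, a calf muscle, of 6 KO and 6 WT mice. The KO mice had the genotype Ank2f/f; HSA-Cre+, in which floxed Ank2 alleles meet a Cre recombinase driven by the human skeletal actin promoter, a promoter active in muscle fibres. The WT mice had the genotype Ank2f/f, so they carried the floxed alleles without the Cre transgene and did not control for Cre itself. Every mouse was male and 4 months old, and the KO mice and their control littermates shared cages. Each library came from 1 mouse.

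Excitation-contraction coupling turns the action potential of a muscle fibre into a rise of calcium in the cytosol. The voltage-gated calcium channel of the T-tubule, the dihydropyridine receptor, senses the voltage and is coupled mechanically to the ryanodine receptor of the sarcoplasmic reticulum, which then releases calcium. Junctophilins hold the T-tubule and sarcoplasmic reticulum membranes together, and triadin ties the release channel to the calcium-binding protein inside the store. Ank2 encodes ankyrin-B, an adaptor between membrane proteins and the spectrin cytoskeleton.

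Of the 10 triad genes, 1 rose and 2 fell in KO muscle, and 7 did not pass the test. Cacnb4, a channel β subunit that was close to the detection limit in WT muscle, rose to 7.27 times its WT mean. It passed the filter on low values through its KO libraries. Cacna2d1, the α2δ subunit of the same channel, fell to 64.6% of its WT mean, and Trdn, which encodes triadin, fell to 78.4%. The genes of the release channel (Ryr1), the voltage sensor (Cacna1s) and its main β subunit (Cacnb1) did not pass, nor did Cacng1, Stac3, Jph1 or Jph2. A gene was called when the p-value of limma, adjusted by the Benjamini-Hochberg method over all 12215 tested genes, was at or under 0.05. This held for 6.2% of the tested genes, with 3.12% higher and 3.08% lower in KO. The groups of 6 did not overlap for 3 triad genes, the same 3 genes, against 2.47% of the tested genes. The triad list was chosen with earlier results of these data known, so its counts beside these shares are no test of the list. Without WT 2 or without KO 6, Cacnb4 alone of the triad genes was called. The median change over the triad genes was -0.13, with 6 of the 10 negative, and over all tested genes it was -0.01, with 52.4% negative.

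Promoter sequence is shown for Cacnb4 and Cacna2d1, the called genes with the largest rise and the largest fall among the triad genes. Each stretch is the 250 bases before a transcription start listed by RefSeq on GRCm38.p6 (mm10), written 5′ to 3′ on the strand of the gene. Capitals mark matches to the E-box CANNTG, the core that myogenic regulators such as MyoD and myogenin bind, and to the GC box GGGCGG, the core bound by Sp1, searched on both strands, so that CCGCCC also counts.
Cacnb4 (chr2:52558612-52558861, minus strand, before the most downstream of its 3 listed starts): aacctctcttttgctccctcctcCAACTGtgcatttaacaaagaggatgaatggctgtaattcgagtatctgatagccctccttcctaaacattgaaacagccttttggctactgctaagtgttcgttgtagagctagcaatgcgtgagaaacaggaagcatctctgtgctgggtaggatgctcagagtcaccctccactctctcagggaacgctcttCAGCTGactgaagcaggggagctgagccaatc
Cacna2d1 (chr5:15934441-15934690, plus strand, before its listed start): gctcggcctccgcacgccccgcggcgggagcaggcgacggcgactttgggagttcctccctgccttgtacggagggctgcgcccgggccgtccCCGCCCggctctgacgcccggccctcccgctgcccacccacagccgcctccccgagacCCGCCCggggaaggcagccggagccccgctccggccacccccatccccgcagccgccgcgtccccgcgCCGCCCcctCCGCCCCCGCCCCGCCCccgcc
The Cacnb4 stretch held 2 E-boxes and 0 GC boxes, with a GC content of 48.8%. The windows before the other 2 Cacnb4 starts, which overlap annotated exons and are not printed, held 0 E-boxes, with 6 GC boxes and a GC content of 79.6% in one and 0 GC boxes and 71.2% in the other. The Cacna2d1 stretch held 0 E-boxes and 6 GC boxes, some of them adjoining, with a GC content of 82.4%. The MEF2 motif, searched by name, was found in 0 of the 10 windows of the 6 triad genes that had an entry. Among 32851 windows of this length over the genome, 66.2% held an E-box, 32.7% a GC box and 2.92% a MEF2 motif. The other listed starts of Cacnb4 lie upstream, and which start was used is not known from values per gene.

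The libraries held an estimated 12283459 to 18706011 reads, with 16178128 ± 1810068 in KO and 14139920 ± 1795148 in WT (SD, n = 6 each). The floxed gene Ank2 had deposited log2 values from 7.54 to 8.03 with a median of 7.68 in KO, against 8.40 to 9.22 with a median of 8.98 in WT. It fell by 1.15 (SE 0.14, limma adjusted p = 0.000881), to 33.1% ± 7.12 of the WT mean (SD, n = 6), and the groups did not overlap. Markers of fast fibres were the same order of magnitude in both groups, with summed scaled reads of 2276140 to 2740570 in KO and 2242290 to 3029210 in WT. Markers of slow fibres averaged 5939 ± 5471 scaled reads in KO and 24196 ± 19790 in WT (SD, n = 6 each), with overlapping ranges of 1228 to 15710 in KO and 5986 to 58272 in WT. The part of fibre type in the triad values was not tested. Scaled reads are the deposited values put back on a linear scale, with the authors' scaling between libraries kept. Of 10 marker lists, 9 had overlapping sums, and in none was a marker at the floor of the table in every library. Satellite cell markers, with 1 of 5 tested genes risen, summed to 409 to 522 in KO and 354 to 413 in WT. The lists for endothelium, for smooth muscle and pericytes, and for adipocytes each had 1 fallen gene. The list whose sums did not overlap was the denervation response, of whose 9 tested genes 5 rose, where 3.12% of all tested genes rose. It summed to 963 scaled reads in KO 2, to 1991 to 3455 in the other KO libraries and to 627 to 790 in WT. KO 2 was the KO library nearest to WT for Cacnb4, Cacna2d1 and Trdn, and without it 1515 genes were called in all and 3 among the triad genes. In bulk muscle, fewer cells of a type and less RNA per cell cannot be told apart.

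**Figure D1:**
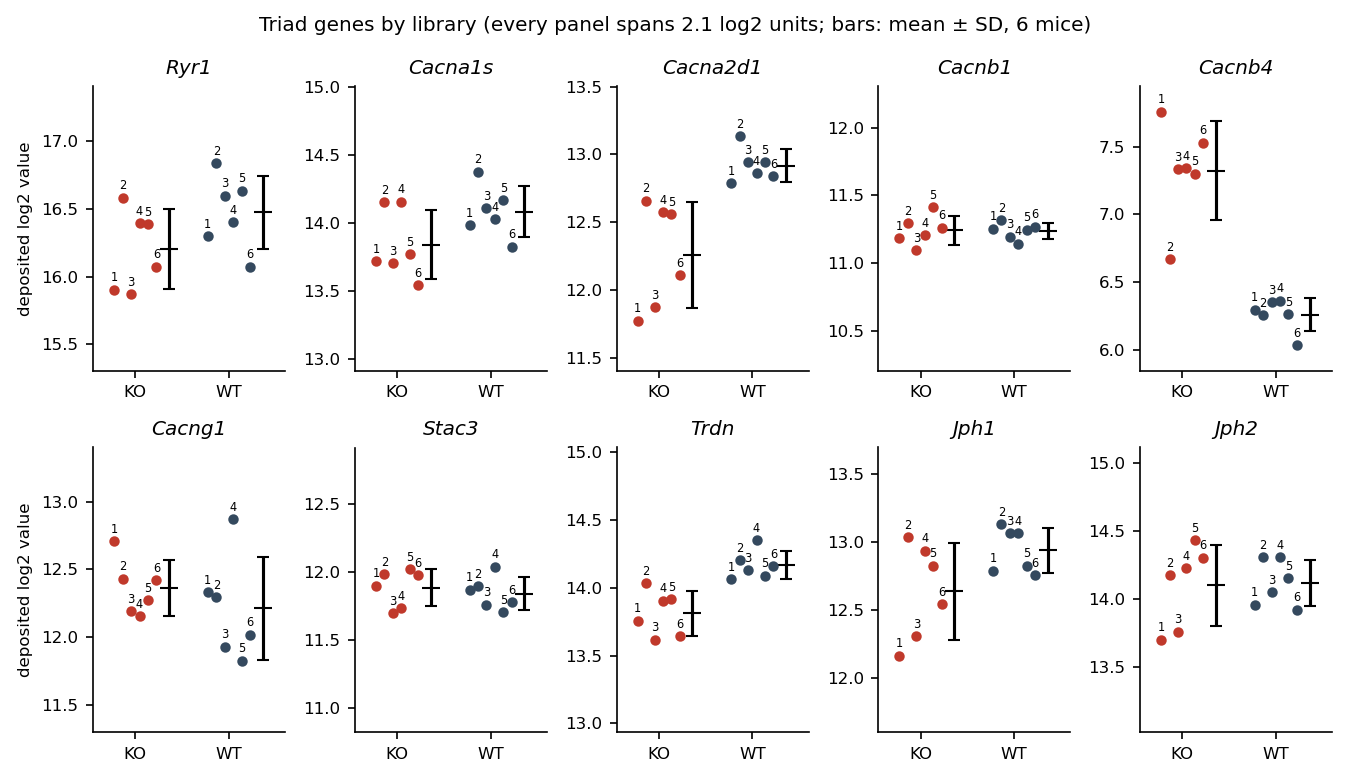
Deposited log2 value (y axis) of each triad gene in the 6 KO and 6 WT mice (x axis, numbered by replicate), with the mean ± SD of each group as a bar. Cacnb4 stands at 6.67 to 7.76 in KO, above every WT library, and Cacna2d1 (11.77 to 12.66) and Trdn (13.62 to 14.04) in KO stand below every WT library, while the groups overlap for the other 7 genes.

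The voltage sensor itself is Cav1.1, whose pore is encoded by Cacna1s (chromosome 1, 136052750 to 136119822, plus strand, mm10). Its deposited log2 values ran from 13.54 to 14.16 with a median of 13.74 in KO, against 13.83 to 14.38 with a median of 14.07 in WT. The groups overlapped, and 4 of the 6 KO libraries were below the WT median. The change of Cacna1s was -0.24 (SE 0.12, 95% interval -0.50 to 0.01), which missed the threshold with a limma adjusted p of 0.215. On the linear scale the KO libraries stood at 68.0% to 105% of the WT mean. An antisense gene model, Gm37759, covers 20.0% of the Cacna1s exon bases. The library kit did not mark strand, so reads of Gm37759 in that stretch cannot be told from those of Cacna1s. Gm37759 is not among the genes of the deposited table.

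Cacna2d1 (chromosome 5, 15934691 to 16374511, plus strand) encodes α2δ-1, a largely extracellular subunit that shapes the surface level and the gating of calcium channels. Deposited log2 values of Cacna2d1 ran from 11.77 to 12.66 with a median of 12.34 in KO, against 12.79 to 13.13 with a median of 12.90 in WT. Every KO library was below every WT library, with KO 1, KO 3 and KO 6 lowest. Cacna2d1 fell by 0.66 (SE 0.14, limma adjusted p = 0.0192), and an exact permutation over all 924 assignments gave its smallest possible p, 0.00216, which adjusted over all tested genes was 0.0875. That is above 0.05, so this test made no call of Cacna2d1, and the same values held for Cacnb4 and Trdn. In scaled reads the KO mean was 64.6% ± 17.1 of the WT mean (SD, n = 6), 44.4% to 83.1% by library in KO and 91.0% to 116% in WT. The value rests on 3962 to 7518 estimated reads per KO library and 6104 to 8798 per WT library. The call was lost without WT 2 (adjusted p = 0.0533) or without KO 6 (adjusted p = 0.0521). Set against the pore gene per kilobase of exon, Cacna2d1 was 0.177 ± 0.0333 of Cacna1s in KO and 0.234 ± 0.0156 in WT (SD, n = 6 each), and the 2 groups of ratios overlapped. The other α2δ genes that could be tested, Cacna2d3 and Cacna2d4, did not pass, with Cacna2d4 at 0.03 (limma adjusted p = 0.931).

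The β subunits bind the cytosolic side of the pore and bring it to the membrane. Cacnb1 (chromosome 11, 98001508 to 98023034, minus strand) encodes the β subunit that skeletal muscle uses. On the deposited log2 scale, Cacnb1 ran from 11.10 to 11.41 with a median of 11.23 in KO, against 11.14 to 11.32 with a median of 11.25 in WT. The KO values spanned the whole WT range. The change of Cacnb1 was 0.01 (SE 0.07, 95% interval -0.15 to 0.16, limma adjusted p = 0.975), the smallest in size among the triad genes.

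Cacnb4 (chromosome 2, 52428320 to 52676831, minus strand) encodes β4, which is best known from neurons of the brain. The log2 values of Cacnb4 as deposited ran from 6.67 to 7.76 with a median of 7.34 in KO, against 6.04 to 6.36 with a median of 6.28 in WT. Every KO library was above every WT library, with KO 1 highest and KO 2 nearest to WT. Cacnb4 rose by 1.06 (SE 0.13, limma adjusted p = 0.000881), with an exact permutation p of 0.00216. The deposited scale compresses differences between low values, and in scaled reads the KO mean was 727% ± 293 of the WT mean (SD, n = 6). On that scale KO 2 stood at 253%, KO 1 at 1147% and the other KO libraries at 670% to 886%, against 43.8% to 129% in WT. The counts behind these levels were small, with 25.1 to 157 estimated reads per KO library and 5.02 to 15.0 per WT library. WT 5 (9.91) and WT 6 (5.02) fell short of the 10 reads that the filter asks of 6 libraries. Cacnb4 thus entered the test through the KO libraries, where it is high. With no filter its change was 1.06 (limma adjusted p = 0.000534). The call held when each library was left out in turn, with changes from 0.97 to 1.19 and adjusted p up to 0.00423.

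By Cacnb4 and by the summed denervation markers alike, KO 1 and KO 6 were the highest KO libraries and KO 2 the lowest. Schwann cell markers, the list nearest to nerve, summed to 232 to 4740 scaled reads in KO and 612 to 2403 in WT, with KO 1 the highest of the 12 libraries and KO 6 the lowest. The part of either in the Cacnb4 result was not tested. The antisense gene A430018G15Rik covers 1433 bases of the Cacnb4 exon sequence, and without strand its reads cannot be told from those of Cacnb4. A430018G15Rik is not among the genes of the deposited table, so its own level is not known.

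Among the paralogs, Cacnb3, a β subunit found in brain and smooth muscle, also rose. Its deposited log2 values ran from 6.71 to 7.91 with a median of 7.33 in KO, against 6.54 to 6.85 with a median of 6.70 in WT. KO 2 lay inside the WT range and the other 5 KO libraries lay above it. Cacnb3 changed by 0.69 (SE 0.15, limma adjusted p = 0.0228), to 299% ± 145 of the WT mean in scaled reads (SD, n = 6). This call was lost without WT 2, WT 3, KO 3 or KO 6, with adjusted p up to 0.0561.

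Counted per kilobase of exon, the β subunit transcripts were nearly all Cacnb1 in both genotypes, at 94.0% ± 2.78 of the Cacnb1 to Cacnb4 sum in KO and 98.2% ± 0.413 in WT (SD, n = 6 each). Cacnb4 made up 1.71% ± 0.694 in KO, with libraries from 0.597% to 2.69%, and 0.248% ± 0.0823 in WT, with libraries from 0.105% to 0.336%. Cacnb3 held a larger share than Cacnb4, at 4.21% ± 2.14 in KO and 1.47% ± 0.355 in WT. The Cacnb4 shares did not overlap between the groups and the Cacnb3 shares did, through KO 2 at 1.43%.

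**Figure D2:**
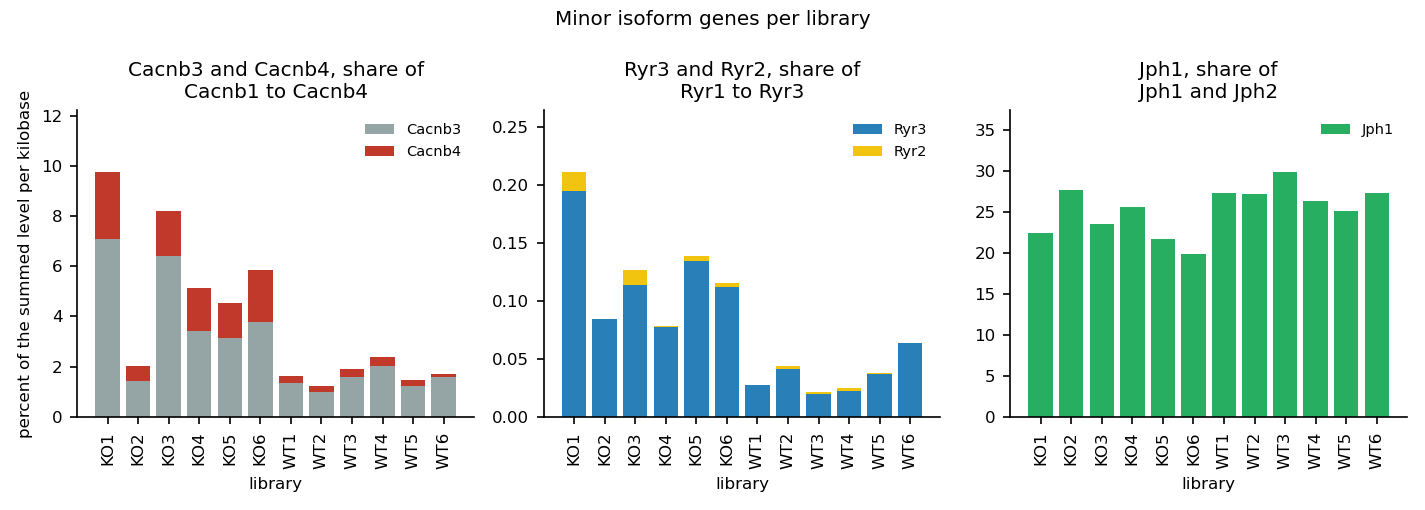
Share of the minor isoform genes in the summed level per kilobase of their family (y axis, percent) in each library (x axis, KO left of WT), with stacked bars for Cacnb3 and Cacnb4, for Ryr3 and Ryr2, and single bars for Jph1. Cacnb4 takes 0.597% to 2.69% of the β subunit level in KO and 0.105% to 0.336% in WT, and Ryr3 takes 0.0770% to 0.195% of the ryanodine receptor level in KO and 0.0196% to 0.0636% in WT.

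Cacng1 (chromosome 11, 107703218 to 107716522, minus strand) encodes γ1, the γ subunit of the skeletal muscle channel, which limits its current. Deposited log2 values of Cacng1 ran from 12.15 to 12.71 with a median of 12.35 in KO, against 11.83 to 12.87 with a median of 12.16 in WT. WT 4 was the highest of the 12 libraries, and the KO range lay within the WT range. The change of Cacng1 was 0.15 (SE 0.15, 95% interval -0.17 to 0.47, limma adjusted p = 0.551).

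Of the other γ genes, Cacng7, a member of the family that also regulates glutamate receptors in neurons, fell. On the deposited log2 scale, Cacng7 ran from 6.64 to 7.62 with a median of 6.87 in KO, against 7.53 to 7.78 with a median of 7.71 in WT. KO 2 lay inside the WT range and the other KO libraries lay below it. Cacng7 fell by 0.67 (SE 0.14, limma adjusted p = 0.0142), to 46.0% ± 27.1 of the WT mean in scaled reads (SD, n = 6). Cacng6, which is also expressed in skeletal muscle and stood higher than Cacng7 per kilobase of exon, differed by -0.02 (limma adjusted p = 0.911).

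Stac3 (chromosome 10, 127501686 to 127508823, plus strand) encodes an adaptor that binds Cav1.1 and is required for coupling to the release channel. The log2 values of Stac3 as deposited ran from 11.70 to 12.02 with a median of 11.94 in KO, against 11.70 to 12.04 with a median of 11.83 in WT. The ranges were nearly identical. The change of Stac3 was 0.04 (SE 0.09, limma adjusted p = 0.771), and its 95% interval reached from -0.14 to 0.23.

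The release channel of skeletal muscle is RyR1, encoded by Ryr1 (chromosome 7, 29003344 to 29125179, minus strand). Its deposited log2 values ran from 15.87 to 16.58 with a median of 16.23 in KO, against 16.07 to 16.84 with a median of 16.50 in WT. The groups overlapped, and 5 of the 6 KO libraries were below the WT median. The change of Ryr1 was -0.27 (SE 0.14, 95% interval -0.58 to 0.04, limma adjusted p = 0.248), with KO libraries at 65.0% to 106% of the WT mean and WT libraries at 74.7% to 127%. It rests on 64928 to 107534 estimated reads per KO library and 68602 to 115618 per WT library. Per kilobase, Ryr1 was 1.56 ± 0.209 times Cacna1s in KO and 1.58 ± 0.104 times in WT (SD, n = 6 each), and the ratios overlapped.

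Ryr3, the isoform found in immature fibres and in a few adult muscles, rose. Deposited log2 values of Ryr3 ran from 7.09 to 7.54 with a median of 7.22 in KO, against 6.41 to 6.88 with a median of 6.61 in WT. Every KO library was above every WT library, KO 2 included. Ryr3 changed by 0.66 (SE 0.11, limma adjusted p = 0.00404), to 277% ± 73.6 of the WT mean in scaled reads (SD, n = 6). It rests on 62.3 to 124 estimated reads per KO library and 14.0 to 41.8 per WT library. Its share of the Ryr1 to Ryr3 level per kilobase was 0.119% ± 0.0424 in KO and 0.0354% ± 0.0162 in WT, so Ryr1 made up nearly all ryanodine receptor transcripts in both genotypes. Ryr2, the cardiac isoform, did not reach the filter.

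Trdn (chromosome 10, 33080554 to 33476709, plus strand) encodes triadin, which anchors calsequestrin, the calcium-binding protein of the store, beside RyR1. On the deposited log2 scale, Trdn ran from 13.62 to 14.04 with a median of 13.83 in KO, against 14.06 to 14.35 with a median of 14.14 in WT. The groups did not overlap, and KO 2 at 14.04 came close to the lowest WT library at 14.06. Trdn fell by 0.35 (SE 0.09, limma adjusted p = 0.0358; exact permutation p = 0.00216). In scaled reads the KO mean was 78.4% ± 9.12 of the WT mean (SD, n = 6), 68.0% to 91.1% by library in KO and 93.0% to 114% in WT. The call was lost in 8 of the 12 fits that left out 1 library, namely KO 1, KO 3, KO 6 or any WT library other than WT 4, with adjusted p up to 0.0973. It was also lost under quantile normalization (-0.24, adjusted p = 0.0611).

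The junctophilins gave different values in the same libraries. Jph1 (chromosome 1, 16964560 to 17097889, minus strand), the isoform typical of skeletal muscle, had deposited log2 values from 12.16 to 13.04 with a median of 12.69 in KO, against 12.76 to 13.13 with a median of 12.95 in WT. KO 1, KO 3 and KO 6 lay below every WT library, and KO 2, KO 4 and KO 5 lay within the WT range. The change of Jph1 was -0.30 (SE 0.14, 95% interval -0.60 to -0.01), and it did not pass after adjustment (limma adjusted p = 0.181). Jph2 (chromosome 2, 163336242 to 163397993, minus strand), the isoform shared with the heart, had deposited log2 values from 13.70 to 14.43 with a median of 14.20 in KO, against 13.92 to 14.31 with a median of 14.10 in WT. Its KO values lay within the WT range and on both sides of it, and its change was -0.02 (SE 0.13, 95% interval -0.29 to 0.25, limma adjusted p = 0.953). Jph1 made up 23.5% ± 2.84 of the summed junctophilin level per kilobase in KO and 27.2% ± 1.58 in WT (SD, n = 6 each), and these shares overlapped.

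Levels per kilobase of exon, in scaled reads, spanned a wide range within the triad, and their order depended on the length used. The values here divide by all annotated exon bases. In KO, the highest were Jph2 at 4179 ± 831, Cacng1 at 4177 ± 625, Ryr1 at 3508 ± 711 and Cacna1s at 2255 ± 415, with each neighbour in that order overlapping the next. A lower block held Trdn at 1536 ± 179, Stac3 at 1456 ± 140 and Jph1 at 1287 ± 310, and a lower one still held Cacnb1 at 516 ± 40.5 and Cacna2d1 at 399 ± 106. Cacnb4 was last at 9.33 ± 3.77 (SD, n = 6 for every gene). In WT, the order was Ryr1 at 4220 ± 783, Jph2 at 4176 ± 493, Cacng1 at 3842 ± 1129, Cacna1s at 2653 ± 351 and Trdn at 1959 ± 146, again with overlapping neighbours. These were followed by Jph1 at 1562 ± 182 and Stac3 at 1410 ± 124, which overlapped, and then by Cacna2d1 at 618 ± 54.8, Cacnb1 at 513 ± 22.0 and Cacnb4 at 1.28 ± 0.394, which did not. Cacna2d1 thus stood above Cacnb1 in every WT library, while the ranges of these 2 genes overlapped in KO. Divided by the longest transcript instead, Ryr1 was highest in both genotypes, at 4988 in KO and 6001 in WT, and Trdn stood above Cacna1s, at 3181 against 2363 in KO and 4059 against 2780 in WT.

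Several triad genes were lowest in the same KO mice. Within each library, the deviation of all tested genes from their mean was fitted against exon length, and the slope gives the log2 difference per doubling of length. Slopes were -0.089 in KO 1, -0.060 in KO 3 and -0.052 in KO 6, against -0.0036 to 0.031 in the other KO libraries and -0.027 to 0.068 in WT. The same 3 KO libraries had the lowest Cacna1s, Cacna2d1, Jph1, Trdn and Ryr1 values of all 12, although KO 6 and WT 6 were nearly equal for Ryr1, whose exons cover 21.8 kb. A further fit removed from each library a smooth (loess) curve of these deviations on exon length, in place of the straight slope. In that fit, the change of Cacna2d1 was -0.56 (limma adjusted p = 0.0164) and that of Trdn -0.28 (adjusted p = 0.0644). Cacna1s changed by -0.19 (adjusted p = 0.278) and Ryr1 by -0.13 (adjusted p = 0.501). Jph1, with 5.00 kb of exons, changed by -0.28 (adjusted p = 0.202). Cacnb4, with 8.96 kb, was higher in every KO library than in any WT library. With the curve removed, Cacnb4 changed by 1.13 (limma adjusted p = 0.00153). KO 1, KO 3 and KO 6 also had the highest summed denervation markers, at 3036 to 3455 scaled reads. The other KO libraries summed to 963 to 2202. Steep slopes, high denervation sums and low triad values thus fell in the same KO mice, and the part of each was not tested. Whether the slope comes from the RNA, the library or the muscle was not tested.

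**Figure D3:**
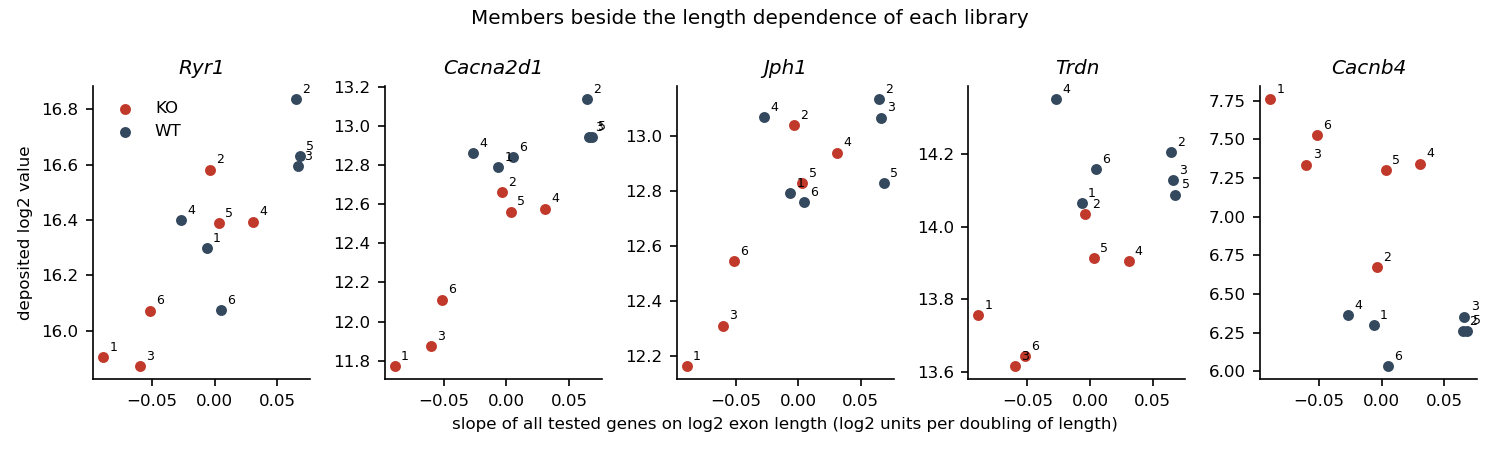
Deposited log2 value of 5 triad genes (y axis) against the slope of all tested genes on exon length in the same library (x axis, log2 units per doubling of length), with KO in red and WT in blue and replicates numbered. KO 1, KO 3 and KO 6 stand at the left with slopes of -0.089 to -0.052 and low values of Ryr1, Cacna2d1, Jph1 and Trdn, while Cacnb4 is above every WT library in all 6 KO libraries.

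After the mean of each genotype was subtracted, the triad genes varied together to different degrees over the 12 libraries. Cacna2d1 and Jph1 had a Pearson r of 0.94, Ryr1 and Cacna2d1 0.86, and Ryr1 and Cacna1s 0.85. Cacnb4 ran the other way from Cacna2d1, at -0.64. Among all tested genes, those whose pattern was most like Cacna2d1 were Hipk3 (0.994), Rragd (0.992) and Ulk2 (0.984). The closest to Cacnb4 were Igf2 (0.942), Usp20 (0.939) and Rpgr (0.926), and to Trdn they were Camta2 (0.950), Fbxw5 (0.950) and Golm1 (0.947). All such values share the libraries, their depth and their length slopes, and they are given as a description.

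Other genes of coupling were counted in 4 lists of 67 genes, of which 51 passed the filter, 4 rose and 2 fell, where 3.12% of all tested genes rose and 3.08% fell. The paralogs of the triad genes had 10 of 25 tested, with Cacnb3 and Ryr3 higher and Cacng7 lower, and a median change of -0.01. The 15 not tested included Ryr2, Cacna1b and Jph3. Cacna1c, the pore gene of the cardiac channel, differed by -0.09 (limma adjusted p = 0.533).

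The junctional and luminal partners, proteins that sit beside RyR1 or buffer calcium in the store, had 0 of 19 tested genes called by limma, with 10 negative and a median of -0.06. At an unadjusted p up to 0.05, limma held 5 of them, against 26.0% of all tested genes, and the exact permutation test held 3, against 23.4%. The 0 did not hold in every fit: 2 genes were called without KO 2, 1 without KO 5 and 1 with a replicate block. Tmem38b, whose product is the cation channel TRIC-B, came closest, at -0.40 (adjusted p = 0.0501) with groups that did not overlap; it is named after its values were seen. Casq1, the calsequestrin of fast fibres, differed by 0.05 (adjusted p = 0.805). Srl, which encodes the luminal protein sarcalumenin, differed by -0.31 (adjusted p = 0.171), and Tmem38a, which encodes the cation channel TRIC-A, by -0.19 (adjusted p = 0.192).

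Of the genes that shape the T-tubule, 11 were tested and 1 rose, with a median change of 0.03. Dnm2, a GTPase that cuts membrane necks and is mutated in centronuclear myopathy, had deposited log2 values from 9.70 to 10.10 with a median of 9.95 in KO, against 9.57 to 9.74 with a median of 9.66 in WT. KO 2 lay inside the WT range. Dnm2 rose by 0.28 (SE 0.07, limma adjusted p = 0.0375), to 125% ± 13.9 of the WT mean (SD, n = 6), and this call was lost in 10 of the 12 fits that left out 1 library. Bin1, which bends the T-tubule membrane, differed by 0.29 (adjusted p = 0.133), and the kinase gene Speg by 0.03 (adjusted p = 0.861).

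Calcium return and entry had 11 tested genes, of which 1 rose and 1 fell, with a median of -0.16. At an unadjusted p up to 0.05, limma held 8 of the 11, against 26.0% of all tested genes. The exact permutation test held 6, against 23.4%. Leaving out 1 library gave 1 to 5 calls in this list, with 5 without KO 2 and 4 without WT 4 or KO 4, and a fit with no variance trend and no robust moderation gave 4. Itpr1, the inositol trisphosphate receptor that also releases store calcium, had deposited log2 values from 8.43 to 9.34 with a median of 8.91 in KO, against 9.48 to 10.45 with a median of 9.77 in WT, without overlap. It fell by 0.99 (SE 0.17, limma adjusted p = 0.00851), to 44.8% ± 11.8 of the WT mean (SD, n = 6). Slc8a3, a sodium-calcium exchanger of the plasma membrane, had values from 10.05 to 10.73 with a median of 10.44 in KO, against 9.89 to 10.19 with a median of 10.06 in WT. It rose by 0.39 (SE 0.10, limma adjusted p = 0.0349), with overlapping groups, and the call was lost in 8 of the 12 fits that left out 1 library. Atp2a1, the calcium pump of fast fibres, differed by -0.16 (adjusted p = 0.384), Pvalb, the calcium buffer parvalbumin, by 0.31 (adjusted p = 0.157), and Stim1, the calcium sensor of the store, by -0.37 (adjusted p = 0.123).

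**Figure D4:**
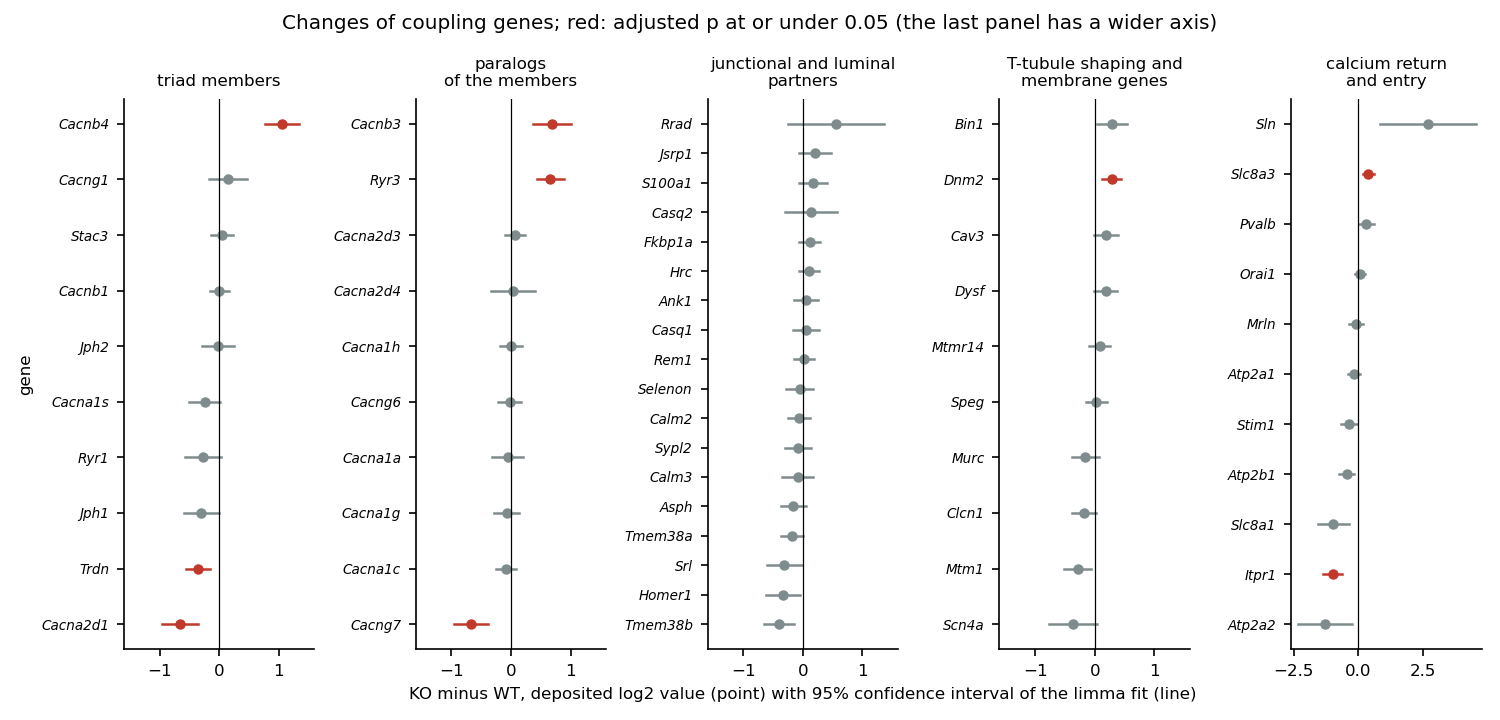
Change of the tested coupling genes, 2 of them not shown, KO minus WT on the deposited log2 scale (x axis), as a point with the 95% interval of the limma fit, in 5 panels (triad genes and 4 lists, with a wider axis in the last). Red marks the called genes: Cacnb4 (1.06), Cacna2d1 (-0.66) and Trdn (-0.35) among the triad genes, and 6 genes in the lists.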

How the data were processed

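Poly-A RNA of 12 mice was sequenced from libraries that, per the labels' protocols, did not mark strand. The tools fastp, STAR and featureCounts and the build mm10 are listed in the submitters' processing notes. Not given in the sources used here are versions, annotation and scaling. The authors deposited log2 values per gene symbol, with a shared floor of 5.5677 at which 6474 genes stand in every library. The values have the shape that a variance-stabilizing transformation leaves, in which low values are compressed. Its closed form was inverted, and the smallest step of each library was taken as 1 read. Of the low values (up to 10 reads), 89.4% to 93.7% then lay within 0.1 of a whole number, so estimated reads are approximate. Intervals and read numbers cover what was sequenced and do not separate PCR duplicates.

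A gene was tested if 6 or more libraries had 10 or more estimated reads of it. Tests used limma 3.58.1 in R 4.3.3, fitted to the deposited values by genotype alone, with a variance trend and robust moderation. Two-sided p-values were adjusted by Benjamini-Hochberg over 12215 genes, at a threshold of 0.05. A change is KO minus WT and carries the standard error (SE) of the fit. Exact two-sided permutation tests used all 924 assignments. Exon lengths and positions come from GENCODE M21, promoter stretches from RefSeq (GRCm38.p6). The fit was tested on simulated data with noise drawn independently for each gene. In the libraries genes vary together, so that test does not cover shared variation.

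The members and lists were chosen with earlier results of these data known. Named genes were the 10 triad genes, Ank2, all called genes and the 3 most abundant uncalled genes of each list, and the 3 genes most like each called triad gene; 2 list genes count in the totals and are not reported here by name. Alternatives covered the test, scale, filter, scaling, gene length, replicate number and each library left out.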

Additional observations from a re-analysis of the deposited data

Results flagged for a closer look

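Among 62 groups of 6 libraries screened for 1 value far from the other 5, 3 were marked, and chance marks about 1 in 20. Cacnb4 in WT replicate 6 was 6.04, below the other WT libraries at 6.26 to 6.36, and rests on 5.02 estimated reads. Tmem38a in WT replicate 4 was 14.51, above the other WT libraries. Bin1 in WT replicate 4 was 13.97, also above the other WT libraries, and without that library Bin1 passed the threshold, with a change of 0.37 (limma adjusted p = 0.0418).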

How the results depend on the processing

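The 3 triad calls rest on 6 mice a group. The exact permutation test with Benjamini-Hochberg adjustment called 0 of the 12215 genes, 0 triad genes and 0 of the other coupling genes, since its smallest adjusted p was 0.0875; at an unadjusted p up to 0.05 it held 2862, 3 and 15 of them, and limma held 3179 of all genes and 4 triad genes. Leaving out 1 library at a time gave 194 to 1515 calls in all (757 with every library, 1515 without KO 2, 194 without KO 6, 205 without WT 3 and 207 without WT 2), 1 to 3 triad calls and 3 to 11 calls among the other coupling genes. Ryr3, Cacng7 and Itpr1, like Cacnb4, passed whichever library was left out. Cacnb4 did not reach the 50-read filter and has no value there. Replicate numbers were not taken as pairs, although 6 libraries a group cannot exclude pairing. Of the 6 same-numbered pairs, 2 had deviations correlated over 0.1 (0.29 for number 1 and 0.19 for number 2). The lowest was -0.36 for number 4, and the mean of the 30 other pairs was 0.0028. Only 2 KO libraries and 1 WT library correlated best with their own number. A replicate block gave 813 calls, kept the 3 triad calls (adjusted p = 0.00116 for Cacnb4, 0.00659 for Cacna2d1 and 0.0412 for Trdn) and lost Dnm2 (adjusted p = 0.0605). Without WT 4, Pvalb passed (0.42, adjusted p = 0.0274).

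Directions turned only for uncalled genes. Leaving out 1 library gave -0.029 to 0.034 for Cacnb1, -0.082 to 0.064 for Jph2, -0.061 to 0.037 for Cacng6, -0.072 to 0.125 for Cacna2d4 and -0.012 to 0.057 for Speg. Quantile normalization gave 0.068 for Jph2 and 0.046 for Cacng6, and length correction 0.052 for Cacna1c and -0.0063 for Casq1. With the longest transcript in place of all exons, levels in KO and WT were 4988 and 6001 for Ryr1, 688 and 684 for Cacnb1, 666 and 1031 for Cacna2d1, 2069 and 2003 for Stac3, and 3181 and 4059 for Trdn. Without division by length, Cacnb4 made up 3.33% in KO and 0.489% in WT, and Jph1 26.5% in KO and 30.5% in WT.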
